A study of Homo sapiens with 8 samples.

Results

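The genes that write and erase DNA methylation were examined for binding of SOX2, OCT4 and NANOG, the transcription factors that hold cells in the pluripotent state. The set holds 6 genes, DNMT3A, DNMT3B, DNMT3L, TET1, TET2 and TET3. A peak was taken for a gene where the deposited list names that gene as a flanking gene within 50 kb (50000 bp) of its transcription start site. This gave 78 peaks out of 201619 in the 6 lists, and they merged into 52 regions. The factors were mapped by chromatin immunoprecipitation with sequencing (ChIP-seq) in NT2/D1, a human embryonal carcinoma line from a germ cell tumour, and in H9, a human embryonic stem cell line. The labels give each line 1 SOX2, 1 OCT4 and 1 NANOG library and 1 IgG control sample, and the labels name no treatment or genetic change in either line. With 1 library per factor and line there was no replicate error to set a difference against, so no test was made between lists.

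DNMT3A and DNMT3B encode the enzymes that place new methyl groups on cytosines, mostly where C is followed by G (CpG), and DNMT3L encodes a relative without catalytic activity that assists them. TET1, TET2 and TET3 encode dioxygenases that oxidise 5-methylcytosine, the first step of removing it. DNMT3B and TET1 are known for high expression in pluripotent cells and early embryos, while DNMT3A has a short isoform, DNMT3A2, made from an internal start.

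The depth and the calling differed between the lines. The NT2/D1 libraries held 10218752 to 23160564 unique tags, against 54046559 to 77649240 in H9, and the median peak held 7 to 11 tags in the NT2/D1 lists and 32 to 46 in the H9 lists. Tag counts, fold enrichments over background and scores are the authors' values per peak and are used to describe peaks within a list. The strength of a peak is given as its score percentile, the share of its own list that scores lower. A peak that was not called in NT2/D1 is not shown to be absent at this depth. The NT2/D1 lists were nonetheless longer for each factor, with 38423 SOX2, 46169 OCT4 and 34208 NANOG peaks. In H9 the lists held 19349, 29575 and 33895 for the same factors. The part of list length in the peak counts per gene was not tested. The labels of the NT2/D1 OCT4 and NANOG samples disagree, since the source name gives OCT4 where the title gives NANOG and the reverse. Titles are followed here, so each NT2/D1 statement on OCT4 or NANOG rests on them. Intervals on tag counts are exact Poisson 95% intervals and cover counting error only.

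Of the 6 genes, 3 had a SOX2 peak in NT2/D1 and 3 in H9. Among all 19704 listed genes the share with such a peak was 55.0% in NT2/D1 and 33.5% in H9. For OCT4 it was 5 of the 6 in NT2/D1, where 75.7% of all listed genes had one, and 6 of 6 in H9, where 55.3% did. For NANOG it was 4 in NT2/D1 beside 55.2% of listed genes, and 5 in H9 beside 54.0%. Having a peak within 50 kb was common for any gene, so these counts alone did not set the DNMT3 and TET genes apart. Within 5 kb of a start, NT2/D1 peaks lay at 2 of the 6 genes for SOX2, 2 for OCT4 and 2 for NANOG, beside 17.3%, 38.4% and 18.3% of listed genes. In H9, NANOG peaks lay within 5 kb of 4 of the genes, beside 21.4% of listed genes, OCT4 peaks of 2, beside 24.1%, and SOX2 peaks of 2, beside 9.57%.

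**Figure D1:**
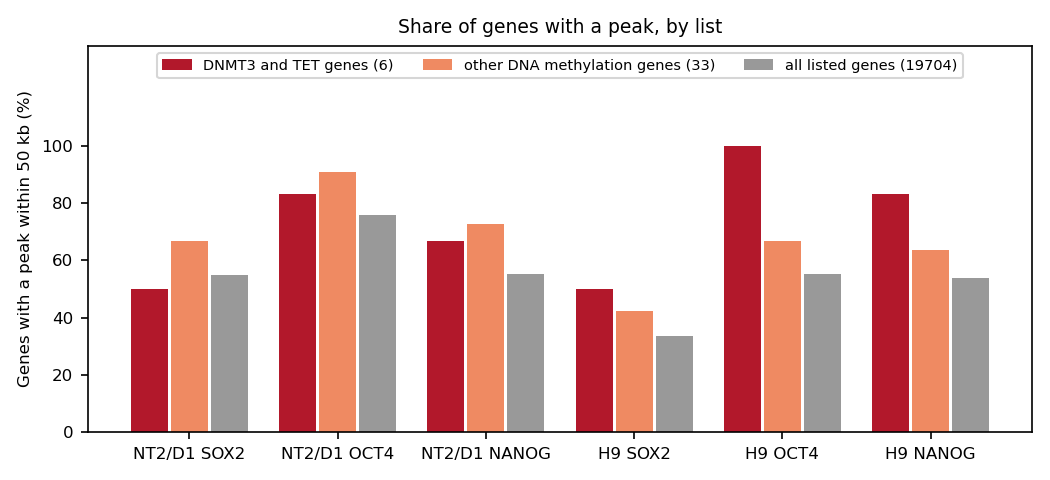
Share of genes with a peak within 50 kb of a start (vertical axis, percent) in each of the 6 lists, for the DNMT3 and TET genes (6), other DNA methylation genes (33) and all listed genes (19704). The DNMT3 and TET genes stand at 100% in H9 OCT4 and at 50% in the SOX2 lists of both lines.

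The 78 peaks were spread unevenly over the genes. DNMT3A had 23 peaks in NT2/D1 and 6 in H9, and DNMT3B had 10 in NT2/D1 and 13 in H9. DNMT3L had 6 in NT2/D1 and 1 in H9, TET1 had 2 in NT2/D1 and 4 in H9, TET2 had 0 in NT2/D1 and 5 in H9, and TET3 had 5 in NT2/D1 and 3 in H9. The share of listed genes with as many peaks was taken list by list, where a gene had any. It was 0.518% to 24.7% for DNMT3A, 1.26% to 29.4% for DNMT3B and 10.9% to 75.7% for DNMT3L and the TET genes. The strongest binding was at DNMT3B. Of 9 peaks in the highest decile of their list by score, 7 lay at DNMT3B, 1 at TET1 and 1 at TET3. In the lower 50% of their list were 33 of the 78. By definition these classes hold 10% and 50% of a whole list, so the totals alone did not set these peaks apart.

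**Figure D2:**
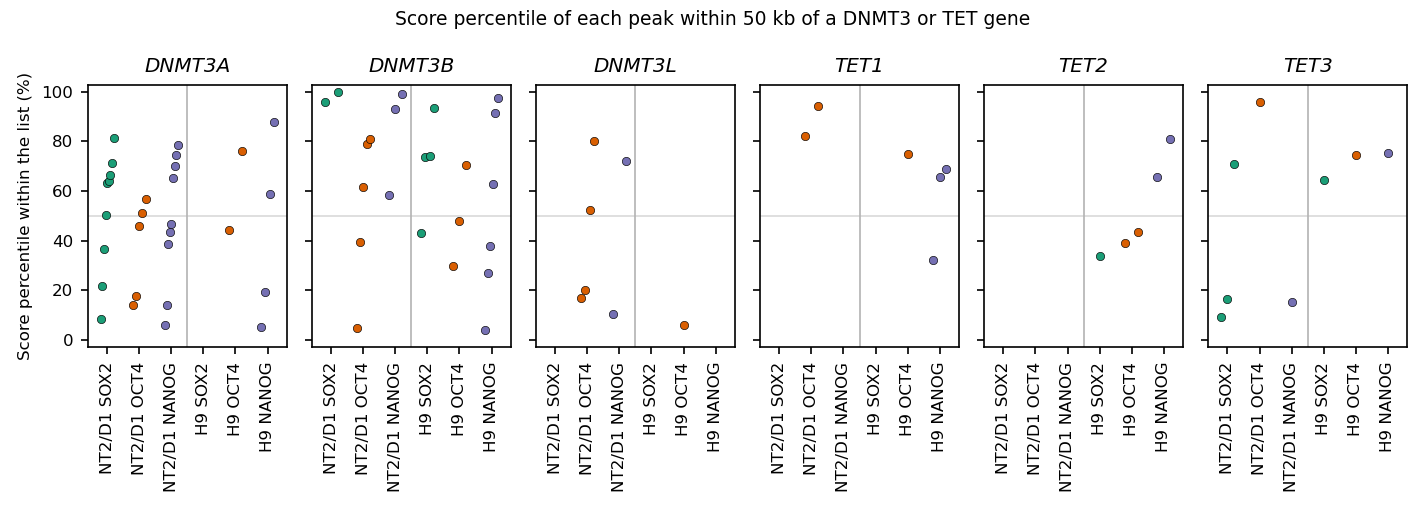
Score percentile within its own list (vertical axis, percent) of each of the 78 peaks, by gene (panels) and list (horizontal axis, NT2/D1 left of H9); each point is 1 peak and the grey horizontal line marks 50%. DNMT3B holds the points above 90% in NT2/D1 SOX2 and NANOG and in H9 SOX2 and NANOG, DNMT3A has many points spread from 5.86% to 81.3% in NT2/D1, and TET2 has points in the H9 lists only.

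Regions in which all 3 factors met were found near 0 of the 6 genes in NT2/D1, where 5.8% of all listed genes had such a region within 50 kb. In H9 there were 4 such regions at 3 of the 6 genes, DNMT3B, TET2 and TET3, where the share among all listed genes was 17.1%. Some peaks of these H9 regions were weak. With all lists limited to their 19349 highest-scoring peaks the regions at TET2 and TET3 were left, and in the upper 50% of each list the TET3 region alone was left. Regions called in both lines lay near 4 of the 6 genes, DNMT3A, DNMT3B, TET1 and TET3, and near 33.2% of all listed genes. The lines shared 7 regions, which made up 17.1% of the 41 with an NT2/D1 peak and 38.9% of the 18 with an H9 peak. Over the whole series these shares were 12.8% for NT2/D1 and 24.5% for H9.

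DNMT3B carried 2 sites that were strong in both lines. The genes of its neighbourhood in the lists were COMMD7, SPAG4L and MAPRE1. The lists use 2 starts for DNMT3B, a first one at chromosome 20 position 31350190 and an internal one at 31367657 (hg19, plus strand), 17467 bp apart. The RefSeq table of the later assembly GRCh38.p14 places the internal start at the same spacing of 17467 bp from the start of the gene. Coordinates were not converted between the builds. The 300 bases around the internal start, from 250 before it to 50 after, are shown. They were chosen because the peak with the highest score percentile of the 78 began 0.997 kb past that start. By this spacing the printed bases lie outside the DNMT3B peaks, the nearest of which began 65 bp past the start. CpG sites, the substrate of the enzyme, are in capitals. The sequence is chr20:32779602-32779901, plus strand, in GRCh38.p14 (RefSeq).
DNMT3B internal start: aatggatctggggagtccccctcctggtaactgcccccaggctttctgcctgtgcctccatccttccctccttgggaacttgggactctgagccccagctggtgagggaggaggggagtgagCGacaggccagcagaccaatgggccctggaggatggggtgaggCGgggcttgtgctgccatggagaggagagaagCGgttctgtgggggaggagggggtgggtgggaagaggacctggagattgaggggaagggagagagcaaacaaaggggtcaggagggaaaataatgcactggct
It holds 3 CpG sites, while the median of the 35116 promoters in the RefSeq table was 14, and 18.2% of them held fewer.

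Past that start, chr20:31368359-31369243 (hg19) held peaks of 5 of the 6 lists. In NT2/D1 the SOX2 peak had 48 tags (interval 35.4 to 63.6), a fold enrichment of 39.55 and rank 17 among 38423 peaks. The NT2/D1 NANOG peak had 33 tags (22.7 to 46.3), a fold of 18.13 and rank 231 of 34208. These were the strongest DNMT3B peaks of NT2/D1, 0.997 and 0.783 kb past the internal start at their near edges. In H9 the NANOG peak had 145 tags (122 to 171), a fold of 25.43 and rank 820 of 33895. The H9 SOX2 peak had 97 tags (78.7 to 118), a fold of 15.23 and rank 1277 of 19349. H9 OCT4 was weaker, with 26 tags (17.0 to 38.1), a fold of 3.71 and a score percentile of 29.9. The 5 summits fell within 79 bp of each other.

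At this site in H9, OCT4 had the lowest score percentile of the 3 factors, 29.9 against 93.4 for SOX2 and 97.6 for NANOG. No OCT4 peak was called there in NT2/D1. The nearest NT2/D1 OCT4 peak spanned chr20:31367722-31367875, 65 bp past the internal start, with 7 tags (2.81 to 14.4), a fold of 7.26 and a percentile of 4.82. By the source names, the library with 33 tags at the shared site would be OCT4 and the one at the start would be NANOG. The authors' FDR of the NT2/D1 SOX2 peak was 100%, and that of the NT2/D1 NANOG peak 27.71%. In these lists FDR rose with score (Spearman rho of 1.0 across the peaks of each), and both were called against an IgG library in which 17.1% of tags were unique, so the FDR does not rank these peaks. In H9 the FDR at the site was 0.47% for SOX2, 0.61% for NANOG and 9.9% for OCT4.

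The second shared DNMT3B site, chr20:31342988-31344703 (hg19), lay 5.5 to 5.8 kb upstream of the first start and held SOX2 and NANOG in both lines, with no OCT4 peak in either. The NT2/D1 SOX2 peak had 18 tags (10.7 to 28.4), a fold of 10.41 and a percentile of 95.9. NT2/D1 NANOG had 13 tags (6.92 to 22.2), a fold of 14.25 and a percentile of 93.3. The H9 SOX2 peak had 79 tags (62.5 to 98.5), a fold of 7.68 and a percentile of 73.6, and H9 NANOG had 174 tags (149 to 202), a fold of 15.16 and a percentile of 91.5. The 4 summits lay within 36 bp of each other.

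The other DNMT3B regions differed between the lists. Just inside the gene, 1.3 to 1.9 kb past the first start, chr20:31351496-31352838 held all 3 factors in H9, and no NT2/D1 peak. There SOX2 had 92 tags (fold 4.77), OCT4 had 64 tags (fold 3.73) and NANOG had 39 tags (fold 3.98). Upstream of each start lay an NT2/D1 OCT4 peak with no partner in another list, 1.01 kb from the first start with 10 tags (fold 9.75) and 6.27 kb from the internal start with 9 tags (fold 8.86). The third region with peaks of both lines, 30.6 kb past the internal start, joined an NT2/D1 NANOG peak of 10 tags (fold 7.04) with a broad H9 SOX2 peak of 161 tags (fold 2.53). Their summits were 1268 bp apart, so the overlap is one of edges.

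**Figure D3:**
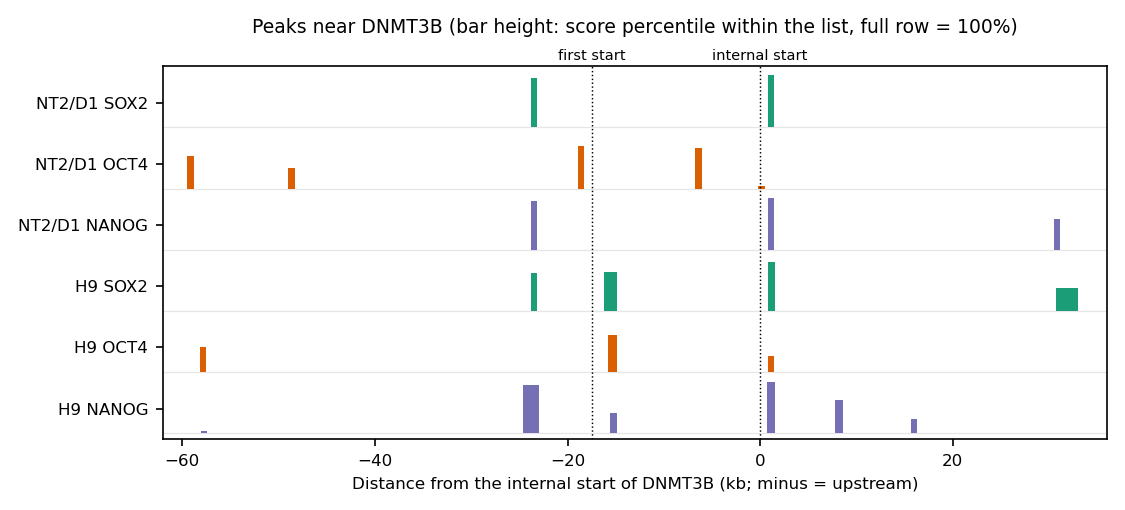
Peaks near DNMT3B by distance from the internal start in kb (horizontal axis, minus is upstream) in the 6 lists (rows, NT2/D1 above H9); bar height is the score percentile, the full row being 100%, and narrow peaks are drawn at a minimum width. SOX2 and NANOG of both lines line up 5.5 to 5.8 kb before the first start and 0.7 to 1.0 kb past the internal start, where NT2/D1 OCT4 is missing.

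DNMT3A had more peaks than any other gene of the set. Most of them were in NT2/D1, whose lists were the longer ones, and 14 of the 29 scored in the lower 50% of their list. NT2/D1 SOX2 had 9, NT2/D1 OCT4 5 and NT2/D1 NANOG 9, while H9 SOX2 had 0, H9 OCT4 2 and H9 NANOG 4. As many as 9 SOX2 peaks in NT2/D1 were found for 0.548% of listed genes, and as many as 9 NANOG peaks for 0.518%. For its NT2/D1 OCT4 peaks this share was 5.23%, and in H9 it was 24.7% for OCT4 and 5.21% for NANOG. The 23 NT2/D1 peaks of the 3 factors held 7 to 23 tags with folds of 3.43 to 9.65, and none of the 29 DNMT3A peaks reached the highest decile of its list. The 29 DNMT3A peaks fell in 23 regions, 18 of them with a peak in a single list. Its neighbours in the lists were POMC, EFR3B and DTNB. DNMT3A has 3 listed starts up to 90.3 kb apart, so its limit of 50 kb takes in more sequence than that of a gene with a single start. Chromosome 2, where DNMT3A and TET3 lie, held 9.8% to 11.19% of the NT2/D1 peaks and 7.89% to 8.56% of the H9 peaks, and the part of this in the count was not tested.

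The strongest DNMT3A site lay 6.9 to 7.4 kb upstream of the start of DNMT3A2, inside the longer transcripts, at chr2:25482071-25483410 (hg19). NT2/D1 OCT4 had 19 tags there (interval 11.4 to 29.7) with a fold of 5.78 and a percentile of 51.3. H9 NANOG had 100 tags (81.4 to 122), a fold of 10.08 and a percentile of 87.7, and H9 OCT4 had 118 tags (97.7 to 141), a fold of 4.85 and a percentile of 76.3. The 3 summits lay within 83 bp. An NT2/D1 SOX2 peak of 16 tags (fold 8.9), the highest-scoring SOX2 peak of DNMT3A, began 17 bp past the end of that region without touching it. Downstream of the same start, chr2:25472493-25473959 held NANOG in both lines, with 13 tags in NT2/D1 (fold 8.22) and 72 tags in H9 (fold 3.5), and summits 253 bp apart. At the long-isoform start an NT2/D1 NANOG peak of 8 tags (fold 9.39) lay 98 bp upstream, and no H9 peak lay within 50 kb upstream of it.

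DNMT3L had 7 peaks, of which 4 scored in the lower 50% of their list and none in the highest decile. In NT2/D1 its 4 OCT4 peaks held 13 to 17 tags and its 2 NANOG peaks 9 and 17 tags. The NT2/D1 percentiles ran up to 80.0 for OCT4 (14 tags, fold 8.88) and to 72.0 for NANOG. In H9 its single peak was of OCT4, with 26 tags, a fold of 4.1 and a percentile of 5.85. None lay within 5 kb of the DNMT3L start and none was shared by the lines. The H9 OCT4 peak ended at position 45669839 (hg19), and the NT2/D1 OCT4 peak of percentile 80.0 began at 45670148, without overlap. The region with peaks of more than 1 list lay 42.5 kb upstream, in the stretch where the lists name ICOSLG, PFKL and C21orf2 around DNMT3L, with NT2/D1 OCT4 at 17 tags (fold 6.75) and NT2/D1 NANOG at 17 tags (fold 4.93). Chromosome 21 held 1.85% to 2.74% of the NT2/D1 peaks and 1.09% to 1.37% of the H9 peaks. The part of this and of the longer NT2/D1 lists in the DNMT3L counts was not tested.

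TET1, the TET enzyme known for high levels in embryonic stem cells, had OCT4 peaks in NT2/D1 and OCT4 and NANOG peaks in H9, and no SOX2 peak in either. Its neighbours in the lists were SLC25A16 and HNRNPH3. Its promoter is shown because peaks of both lines covered its start. The sequence is chr10:68560087-68560386 (GRCh38.p14, plus strand, RefSeq), with CpG sites in capitals.
TET1 promoter: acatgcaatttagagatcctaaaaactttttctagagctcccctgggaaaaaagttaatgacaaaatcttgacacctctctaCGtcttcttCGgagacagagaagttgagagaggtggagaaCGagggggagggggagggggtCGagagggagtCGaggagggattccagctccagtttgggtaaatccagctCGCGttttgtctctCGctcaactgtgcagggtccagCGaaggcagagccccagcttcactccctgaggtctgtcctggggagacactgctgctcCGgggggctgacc
It holds 10 CpG sites. At this start (chromosome 10, 70320116 in hg19) the NT2/D1 OCT4 peak had 12 tags (interval 6.2 to 21.0), a fold of 12.56 and a percentile of 82.2. The H9 NANOG peak over the same start had 40 tags (28.6 to 54.5), a fold of 3.18 and a percentile of 32.1. The summits lay 34 bp apart, so by the titles the lines shared a position here but not a called factor. By the source names the NT2/D1 library would be NANOG, the factor called in H9.

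The higher-scoring NT2/D1 OCT4 peak of TET1 lay far inside the gene, at chr10:70359955-70360322 (hg19), with 13 tags (6.92 to 22.2), a fold of 13.19 and rank 2691 of 46169. It ran 39839 to 40206 bp past the first TET1 start, and no H9 peak lay there. RefSeq lists further TET1 starts 39931 and 40137 bp past the first in GRCh38.p14. The spacing between the TET1 start and that of the next gene, CCAR1, was 160854 bp in the hg19 lists and 160902 bp in RefSeq. The last of these TET1 starts is shown for that reason, as chr10:68600224-68600523 (GRCh38.p14, plus strand, RefSeq), with CpG sites in capitals.
TET1 downstream start: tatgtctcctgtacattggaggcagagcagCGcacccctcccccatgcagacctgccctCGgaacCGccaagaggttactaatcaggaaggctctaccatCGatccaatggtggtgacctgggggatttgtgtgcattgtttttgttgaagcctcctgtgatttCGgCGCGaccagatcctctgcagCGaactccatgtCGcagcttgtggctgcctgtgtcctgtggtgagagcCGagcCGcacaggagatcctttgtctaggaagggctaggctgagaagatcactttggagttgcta
It holds 11 CpG sites. Of the 14 promoters in the table for 5 of the genes (DNMT3L is not in it), it was the one that held the SOX core motif CATTGT, searched on both strands, at position -116 from the start. That motif was in 10.8% of all 35116 promoters. The octamer ATGCAAAT was in 0 of the 14 and in 1.77% of all promoters, and the composite of the SOX core followed, after any base, by the first 7 letters of the octamer was in 0 of the 14 and 0.00854% of all. A match is a description of letters and not a binding site.

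In H9 the other TET1 peaks lay close to the first start. A region 6.5 to 6.6 kb upstream held OCT4 with 57 tags (interval 43.2 to 73.9; fold 4.44) and NANOG with 44 tags (32.0 to 59.1; fold 5.81). A broad NANOG peak 1.64 kb past the start had 102 tags (83.2 to 124) and a fold of 4.61. NT2/D1 had no peak at either. Chromosome 10 held 2.07% to 3.41% of NT2/D1 peaks and 4.37% to 4.81% of H9 peaks, and its part in these counts was not tested.

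TET2 had 0 peaks within 50 kb in the 3 NT2/D1 lists and 5 peaks in the 3 H9 lists, which name PPA2 and EEF1AL7 as its neighbours. All 3 factors met at chr4:106066802-106067360 (hg19) in H9, 0.582 to 0.714 kb upstream of the listed start. SOX2 had 24 tags there (interval 15.4 to 35.7; fold 5.66), OCT4 16 tags (9.15 to 26.0; fold 4.97) and NANOG 32 tags (21.9 to 45.2; fold 5.92). Their percentiles were 33.8, 43.5 and 65.7, so these were modest peaks, and the summits lay within 84 bp. RefSeq lists 2 starts for TET2, 328195 and 327194 bp from the start of its neighbour PPA2 in GRCh38.p14, while the listed TET2 start was 327285 bp from it in hg19. The H9 peaks ran 327919 to 328308 bp from the PPA2 start for SOX2, 327999 to 328200 bp for OCT4 and 327867 to 328425 bp for NANOG. At these spacings the earlier RefSeq start falls within all 3 peaks, if the builds have the same length between the genes. This could not be checked in the absence of a further shared start. RefSeq gives PPA2 more than 1 start, and 1 of them was used. For OCT4 the margin is small, since the earlier TET2 start is at 328195 bp and the peak ends at 328200 bp. The promoter of that earlier start is shown as chr4:105145625-105145924 (GRCh38.p14, plus strand, RefSeq), with CpG sites in capitals.
TET2 earlier start: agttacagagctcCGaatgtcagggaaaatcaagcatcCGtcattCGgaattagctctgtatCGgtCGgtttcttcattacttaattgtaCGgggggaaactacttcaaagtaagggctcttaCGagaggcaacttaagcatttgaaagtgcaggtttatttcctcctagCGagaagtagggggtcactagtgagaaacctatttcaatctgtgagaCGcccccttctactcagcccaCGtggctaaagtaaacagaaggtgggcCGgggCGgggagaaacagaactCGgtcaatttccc
It holds 13 CpG sites. A second H9 region, 15.3 kb past the listed start, held NANOG with 47 tags (34.5 to 62.5; fold 7.4) and OCT4 with 24 tags (15.4 to 35.7; fold 4.52). Chromosome 4 held 2.67% to 3.93% of NT2/D1 peaks and 6.19% to 7.44% of H9 peaks. The absence of NT2/D1 calls at TET2 goes with this lower share and with the lower depth, and their part in it was not tested.

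TET3 had 1 strong region, called in 4 of the 6 lists. It lay 19.1 to 19.4 kb upstream of the listed start, at chr2:74253148-74254311 (hg19), between DGUOK and TET3 in the lists, which name MTHFD2 and BOLA3 on the other side. NT2/D1 OCT4 had 35 tags (interval 24.4 to 48.7), a fold of 18.86 and rank 1853 of 46169. In H9 SOX2 had 70 tags (54.6 to 88.4; fold 6.44), OCT4 88 tags (70.6 to 108; fold 4.85) and NANOG 90 tags (72.4 to 111; fold 7.21), at percentiles of 64.5, 74.7 and 75.3. All 4 summits lay within 53 bp. In NT2/D1 the site was called for OCT4 alone, by the titles, while in H9 it was called for all 3 factors. The region lay 99.2 to 100.4 kb from the DGUOK start. In GRCh38.p14 RefSeq places TET3 starts 58.0 and 75.8 kb from that start and the end of TET3 208.6 kb from it. The spacing from the DGUOK start to that of MTHFD2, which lies past TET3, was 271737 bp in the hg19 lists and 271735 bp in RefSeq. By that later annotation the region is inside TET3. The other TET3 peaks were 3 of NT2/D1 SOX2 with 9 to 14 tags and 1 of NT2/D1 NANOG with 10 tags, each in a single list.

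**Figure D4:**
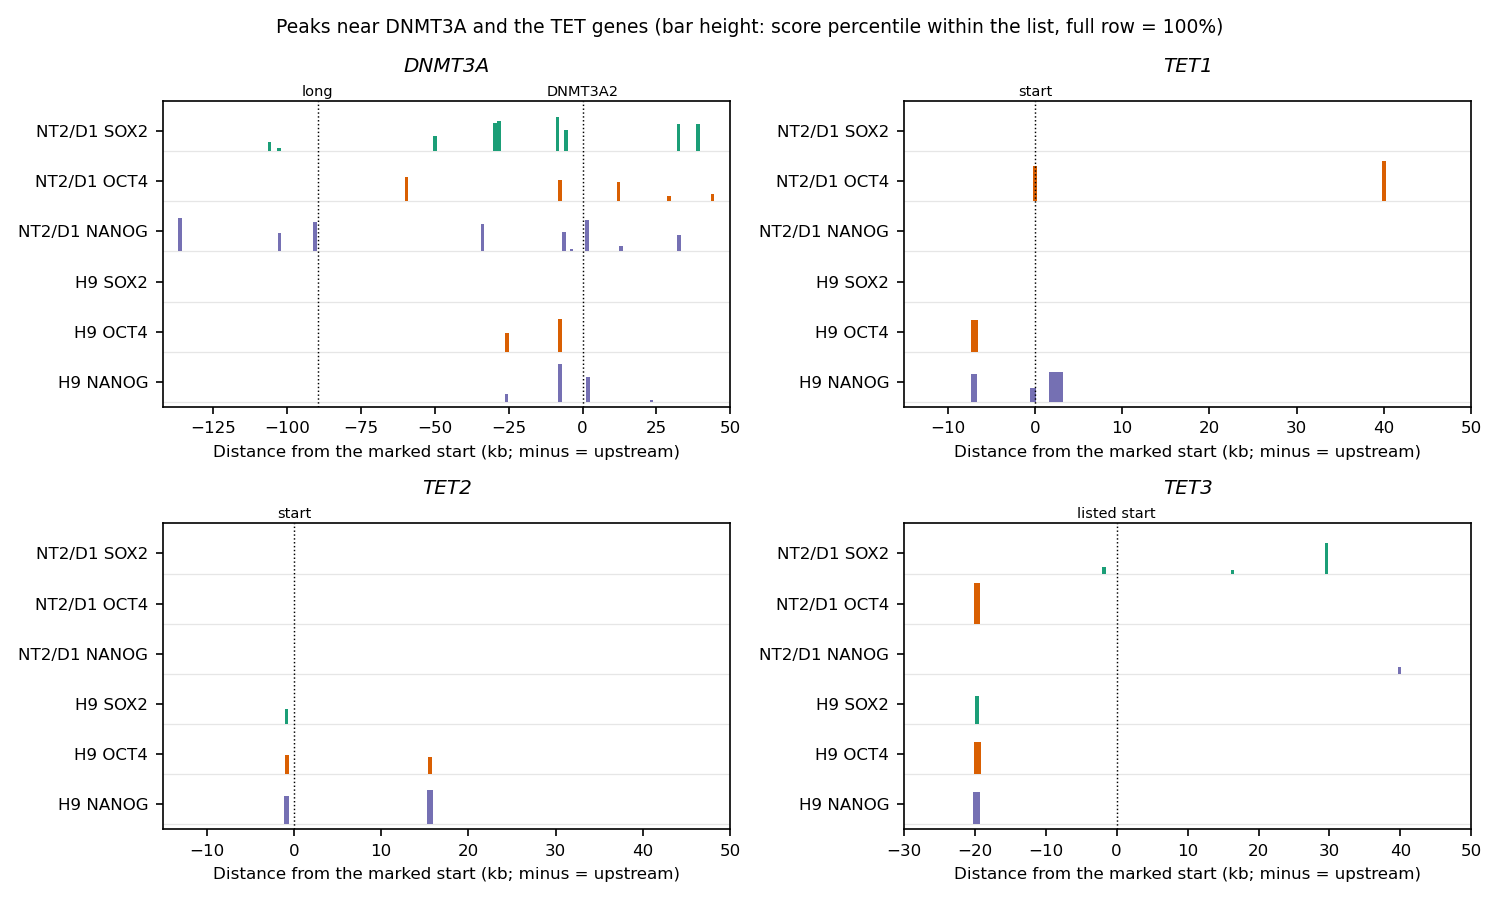
Peaks near DNMT3A, TET1, TET2 and TET3 by distance in kb from the start at 0 (horizontal axis, minus is upstream; the dotted line at 0 is the DNMT3A2 start for DNMT3A) in the 6 lists (rows, NT2/D1 above H9); bar height is the score percentile, the full row being 100%, and narrow peaks are drawn at a minimum width. NT2/D1 peaks are scattered over DNMT3A and missing at TET2, and the TET3 region 19.1 to 19.4 kb upstream stands in NT2/D1 OCT4 and all 3 H9 lists.

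Some of the strongest sites listed with these genes lay outside the 50 kb limit. The peak just inside it was an NT2/D1 NANOG peak of DNMT3A at 45846 bp with 11 tags, and the one just outside an NT2/D1 SOX2 peak of DNMT3A at 55884 bp with 16 tags. Beyond the limit were 52 peaks in 37 regions, of which 3 were in at least 4 lists. The region upstream of TET2, 230.2 to 230.6 kb from its start (chr4:105836837-105837699, hg19), was nearer to TET2 than to the other flanking gene in the lists, PPA2. NT2/D1 OCT4 had 18 tags there (fold 30.77, rank 775 of 46169) and NT2/D1 SOX2 had 21 tags (fold 8.75). In H9 SOX2 had 134 tags (fold 29.23, rank 241 of 19349), OCT4 had 101 tags (fold 19.42, rank 180 of 29575) and NANOG had 125 tags (fold 22.57, rank 775 of 33895). The 5 summits lay within 23 bp. So the site listed with TET2 that was strongest in H9 was also called in NT2/D1, although the list of NT2/D1 peaks near the gene was empty.

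NT2/D1 had all 3 factors together at the other pair of distant regions. At 66.0 to 66.2 kb upstream of the listed TET3 start (chr2:74206743-74207438, hg19), NT2/D1 NANOG had 24 tags (fold 17.11), NT2/D1 SOX2 19 (fold 7.28) and NT2/D1 OCT4 17 (fold 8.45), and H9 NANOG had 42 tags (fold 6.94). The region was 52.8 to 53.5 kb from the DGUOK start, where RefSeq has its first TET3 promoter at 58.0 kb in GRCh38.p14. At 215.5 to 215.7 kb upstream of DNMT3A (chr2:25780993-25781729), NT2/D1 NANOG had 21 tags (fold 9.68), NT2/D1 SOX2 had 17 (fold 7.08) and NT2/D1 OCT4 had 16 (fold 8.36). H9 had 28 tags for OCT4 (fold 3.88) and 51 for NANOG (fold 7.69) there. DTNB, 114.8 to 115.0 kb from that region, was nearer to it than DNMT3A.

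The patterns over the 6 lists were compared with those of all other listed genes by the best score percentile in each list, 0 standing for no peak. DNMT3B was most like SMAD3, a transducer of TGF-beta and activin signals, with a mean difference of 2.2 percentile points over the 6 lists. FOXF2, a forkhead transcription factor gene, followed at 2.6. TET3 was most like WWTR1, which encodes the Hippo pathway coactivator TAZ, at 3.5 points, and SLC1A1, a glutamate transporter gene, at 5.9. DNMT3A was most like METTL13, a protein methyltransferase gene, at 4.9 and TAFA4, which encodes a secreted protein, at 5.4. These were the closest of the 19704 listed genes, those flanking the same peaks left out, and are a description of the lists.

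Other genes of DNA methylation had peaks in a share above that of all listed genes in each of the 6 lists, which was not tested. Of 36 such genes, 33 were listed with a peak anywhere. In NT2/D1, 22 had a SOX2 peak within 50 kb (66.7%), 30 an OCT4 peak (90.9%) and 24 a NANOG peak (72.7%). In H9, 14 had a SOX2 peak (42.4%), 22 an OCT4 peak (66.7%) and 21 a NANOG peak (63.6%). Regions of all 3 factors lay near 2 of the 33 in NT2/D1 (6.06%) and near 7 in H9 (21.2%), beside 5.8% and 17.1% of all listed genes.

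In NT2/D1 those 2 genes were USP7, a deubiquitinase that acts on the maintenance enzyme DNMT1, and DPPA3, which protects methylation in the mouse early embryo. DPPA3 counts here through an overlapping peak that the lists do not place within 50 kb of it. Of the peaks listed with DPPA3, NT2/D1 SOX2 and NANOG overlapped, 16262 and 16024 bp away, without OCT4. The region 19797 to 20078 bp from USP7 (chr16:9077138-9078185, hg19) was called in all 6 lists, and its folds were above those of the DNMT3B site past the internal start in each of the 5 lists with a peak at both. In NT2/D1 NANOG had a fold of 69.93, SOX2 46.84 and OCT4 25.64, and in H9 NANOG had 43.19, SOX2 26.45 and OCT4 8.68. By score the order was the reverse in NT2/D1 SOX2, with 389.72 at USP7 and 438.31 at the DNMT3B site. The score was higher at USP7 in the other lists with a peak at both. The H9 genes included CXXC4, whose product binds unmethylated CpG, DPPA3, HELLS, KDM2B, QSER1 and USP7. HELLS, a chromatin remodeller needed for DNA methylation, had all 3 H9 factors 34 to 622 bp from a start, with 79 tags for NANOG (fold 13.13), 54 for SOX2 (fold 6.75) and 29 for OCT4 (fold 4.64). Its single NT2/D1 peak was of OCT4, 19321 bp away with 5 tags. QSER1, which guards bivalent promoters from de novo methylation, had 115 tags for NANOG (fold 5.8), 132 for OCT4 (fold 6.76) and 69 for SOX2 (fold 5.73) in H9, and an OCT4 peak of 9 tags (fold 11.77) in NT2/D1. By highest score percentile, USP7 was followed by GADD45G, of a family tied to demethylation, SMUG1, a DNA glycosylase gene, and KDM2B, whose product binds CpG islands. Their best peaks were in NT2/D1. The GADD45G peak, of OCT4 with 42 tags (fold 11.42), overlapped a start. The SMUG1 peak, of NANOG with 17 tags (fold 12.91), lay 27186 bp from a start. The KDM2B peak, of SOX2 with 23 tags (fold 10.57), lay 45093 bp from one.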

How the data were processed

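ChIP-seq peak lists of 6 libraries (SOX2, OCT4 and NANOG in NT2/D1 and in H9) were used. The 2 IgG samples were not analysed on their own. Peaks were called by the authors with MACS for each library against an IgG library, with a tag size of 50 and a p-value cutoff of 0.001, per the file headers. The band width was 200 in NT2/D1 and 2000 in H9, and the model fold was 5 for NT2/D1 OCT4 and 3 elsewhere, per the file headers. The 3 H9 lists share an IgG library. The control tag totals differ within NT2/D1, per the file headers, with 17173085 tags for both the SOX2 and NANOG lists and 12359411 for OCT4. The labels name 1 NT2/D1 IgG sample, and which of these controls it is was not worked out. Per the submitters' processing notes the genome build is hg19. For the aligner and the MACS version, nothing is given in the sources used here.

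Each deposited tag count is a whole number of ChIP tags, not normalized. The deposited fold is the authors' ratio over background, and the deposited FDR is in percent. The deposited score was read as the negative log10 p-value multiplied by 10, since no list goes below 30 and its column name is overwritten. The flanking genes and distances are the authors', and 47 peaks without a distance were left out of gene counts.

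Symbols of 23831 of 25014 accessions were taken from the RefSeq table of GRCh38.p14. Starts were recovered in hg19 from the distances. Overlap by 1 bp or more joined peaks into a region. Score percentiles and intervals were computed with Python 3.11.15, pandas 2.3.3, numpy 2.4.6 and scipy 1.17.1, and merging was checked on simulated data. No genome of hg19 was used, so motifs were searched in RefSeq promoters.

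The 6 genes, the list of 36 other DNA methylation genes and the rules were chosen with earlier results of these data known. The genes named are the 6 genes and the flanking genes of their peaks. Of the 36, they are those with a region of all 3 factors and the 4 with the highest score percentile. For each of the 6 genes with peaks in at least 4 lists, they are the 2 genes most like it. A gene that this rule names is not reported here. Starts of neighbours were named to compare spacing. The alternatives were the nearer flanking gene, a limit of 5 kb, the upper 50% by score, lists of equal length, an FDR of at most 5%, other overlap rules and the factor by source name.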

Additional observations from a re-analysis of the deposited data

How the results depend on the processing

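No paired analysis was possible because each factor and line had 1 library. No library could be left out in turn for the same reason, and FDR was not applied to regions. Of 56 alternative counts, 31 stayed within 1.5 times of the reported one and 25 did not. The nearer gene, the 5 kb limit, the upper 50%, equal lengths and the FDR limit only take peaks away. Under them a number of peaks could not rise, so its fall is no check of a result. In each of the 6 lists the number of peaks fell with the 5 kb limit, to 4 for NANOG, 2 for SOX2 and 3 for OCT4 in NT2/D1, and to 6 for NANOG, 3 for SOX2 and 3 for OCT4 in H9. In the upper 50% by score there were 9, 10 and 8 peaks for SOX2, OCT4 and NANOG in NT2/D1, and 4 and 10 for OCT4 and NANOG in H9. Lists of equal length left 7 for OCT4 and 9 for SOX2 in NT2/D1, and 10 for NANOG in H9. An FDR of at most 5% left 6 for NT2/D1 OCT4 and 4 for H9 OCT4, while in NT2/D1 SOX2 and NANOG this limit removed the strongest DNMT3B peaks.

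The count of regions with all 3 factors was 0 in NT2/D1 under the 6 alternatives run. Only the rule of summits within 200 bp could have raised it, since the others remove peaks or tighten the overlap. No wider distance limit was run, and beyond 50 kb NT2/D1 had all 3 factors together at regions listed with TET3 and DNMT3A. In H9 the count of such regions within the limit was 1 in the upper 50% by score and 2 in lists of equal length, against 4. The NT2/D1 regions that overlap an H9 peak numbered 3 with the 5 kb limit, against 7, and 5 with a reciprocal overlap of 50% or with summits within 200 bp. With the factor taken from the source name, NT2/D1 OCT4 had 15 peaks and NT2/D1 NANOG 17. The other DNA methylation genes with a peak within 5 kb numbered 9, 17 and 8 for SOX2, OCT4 and NANOG in NT2/D1, and 8, 12 and 10 in H9.

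Peaks of 5 to 10 tags in NT2/D1 rest on few reads, and a site not called there is not shown to be unbound.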
